A study of Mus musculus with 12 samples.

Results

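The genes described here encode the machinery of DNA replication and cell division. They are 56 listed genes with 9 roles: cyclins and transcription factors that open the cell cycle, replication licensing and the replication fork, nucleotide supply, mitotic cyclins and kinases, chromosome structure, the spindle, the kinetochore and spindle checkpoint, mitotic exit, and cytokinesis. A probe set of the array was taken for a member when the platform annotation named exactly 1 gene for it and that gene was on the list. This gave 129 probe sets for 55 of the 56 genes, out of 18193 genes so named on the array, and Ccnb1 is not analysed here. Of the 55 genes, 45 had a probe set past the filter on low signals, which asked for a signal over the array's own 40th percentile (40.3 to 51.6) on at least 3 of 12 arrays. The other 10 (E2f1, E2f8, Cdc6, Tyms, Melk, Ncapg, Bub1, Bub1b, Ttk and Kif20a) were too dim to be tested. The number of arrays over the threshold was 12 for 27 genes, while Mki67 and Anln passed through wild-type arrays only. For Cdk1, Birc5, Ube2c, Cdca8, Aurkb and Gins1 fewer than 3 null arrays were over it, so these passed only with their wild-type arrays. For Cenpe and Espl1 fewer than 3 wild-type arrays were over it.

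RNA came from whole kidneys of male mice, 8 weeks old when bought, of the C57BL/10 strain (genotype WT, here wild type) or of the substrain C57BL/10ScNJ (genotype TLR4-/-, here TLR4 null), which lacks Toll-like receptor 4, an innate immune receptor for bacterial lipopolysaccharide. Every mouse lost its right kidney under isoflurane. In the ischemic groups the left renal pedicle was then clamped for 23 min, in the sham groups the clip was only laid under the pedicle, and all left kidneys were taken at 4 h of reperfusion. Each of the 4 groups (wild-type sham, wild-type ischemic, TLR4 null sham and TLR4 null ischemic) held 3 kidneys on 3 arrays, which the labels call biological replicates. The null mice are of another substrain, so the missing receptor and any other difference between the substrains cannot be told apart, and the sham kidneys too came from freshly nephrectomised animals.

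In a dividing cell, origins of replication are licensed in G1 when the MCM helicase is loaded with the help of Cdc6 and Cdt1, and DNA is copied in S phase from deoxynucleotides made by ribonucleotide reductase. Cyclin-dependent kinase 1 with its A and B cyclins then drives mitosis, in which condensin compacts the chromosomes, the spindle attaches to kinetochores, the anaphase-promoting complex triggers separation and the chromosomal passenger complex guides cytokinesis. Most of these genes are transcribed in waves, the S-phase genes under E2F factors and many mitotic genes through a CHR element (TTTGAA) often found near CCAAT boxes, which bind NF-Y. In the healthy adult kidney few tubular cells divide, and tubular proliferation after ischemia is known to follow the injury with a delay of a day or more.

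The start regions of 5 members are shown because the results turn on these genes: Mki67, Cdk1 and Top2a, which separated the genotypes in both surgeries, and Kif20b and Mcm5, which were lower after ischemia in both genotypes. Each window holds 250 bases before and 50 after the annotated start in the RefSeq table of build GRCm38.p6, written 5′ to 3′ on the strand of the gene. Capitals mark the CHR word TTTGAA, the NF-Y word CCAAT and the E2F-type words TTTCCCGC, TTTGGCGC and TTCCCGCC, searched on both strands (on the reverse strand TTTGAA reads TTCAAA and CCAAT reads ATTGG). TTTCCCGC and TTCCCGCC can overlap.
Mki67, chr7:135716330-135716629, minus strand: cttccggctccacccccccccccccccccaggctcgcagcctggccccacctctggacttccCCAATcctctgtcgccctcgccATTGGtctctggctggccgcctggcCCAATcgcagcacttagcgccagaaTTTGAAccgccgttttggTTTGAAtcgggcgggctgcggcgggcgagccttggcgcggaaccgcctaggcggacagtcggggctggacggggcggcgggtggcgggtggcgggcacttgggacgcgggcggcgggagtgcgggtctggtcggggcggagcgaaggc
Cdk1, chr10:69352863-69353162, minus strand: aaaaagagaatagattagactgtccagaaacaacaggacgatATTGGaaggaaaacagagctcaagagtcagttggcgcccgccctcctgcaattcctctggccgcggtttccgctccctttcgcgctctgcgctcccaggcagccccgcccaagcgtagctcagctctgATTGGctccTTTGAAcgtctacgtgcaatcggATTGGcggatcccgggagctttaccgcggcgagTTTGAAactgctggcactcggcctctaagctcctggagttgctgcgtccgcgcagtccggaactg
Top2a, chr11:99024140-99024439, minus strand: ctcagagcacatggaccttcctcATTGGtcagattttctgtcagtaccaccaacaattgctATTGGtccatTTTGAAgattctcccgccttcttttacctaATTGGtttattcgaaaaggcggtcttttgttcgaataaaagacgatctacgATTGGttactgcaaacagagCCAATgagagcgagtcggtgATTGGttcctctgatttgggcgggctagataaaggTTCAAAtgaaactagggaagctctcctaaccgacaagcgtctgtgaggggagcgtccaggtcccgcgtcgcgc
Kif20b, chr19:34922108-34922407, plus strand: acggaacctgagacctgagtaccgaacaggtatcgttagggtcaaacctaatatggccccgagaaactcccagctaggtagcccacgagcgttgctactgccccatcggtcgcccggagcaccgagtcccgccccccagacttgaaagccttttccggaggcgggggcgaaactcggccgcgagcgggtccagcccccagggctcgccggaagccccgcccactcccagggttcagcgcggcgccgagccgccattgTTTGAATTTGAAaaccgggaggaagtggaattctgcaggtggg
Mcm5, chr8:75109259-75109558, plus strand: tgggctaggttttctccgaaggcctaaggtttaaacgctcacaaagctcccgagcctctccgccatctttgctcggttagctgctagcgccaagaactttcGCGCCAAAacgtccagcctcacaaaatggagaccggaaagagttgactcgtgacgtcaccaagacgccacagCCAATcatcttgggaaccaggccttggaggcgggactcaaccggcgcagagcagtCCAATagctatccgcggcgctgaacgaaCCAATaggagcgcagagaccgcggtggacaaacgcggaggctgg
Counting the start as 1 and the base before it as -1, the Mki67 window held TTTGAA at -116 and -98 with CCAAT words at -188, -166 (reverse) and -141. Cdk1 held TTTGAA at -71 and -15, and Top2a held it at -179 and, reversed, at -23. In Kif20b a tandem pair of TTTGAA lay at 8 and 14, and no CCAAT was in the window. Mcm5 had no TTTGAA but the E2F-type word TTTGGCGC, reversed, at -149.

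Windows were in the table for 45 of the 56 listed genes. TTTGAA was in 25 of these 45 (55.6%), against 20.2% of the 27025 genes of the table, and CCAAT was in 34 (75.6%) against 41.1%. Both words together were in 23 (51.1%) against 7.97%, and at least 1 of the 3 E2F-type words was in 8 (17.8%) against 3.69%. Among the 7 members called between the genotypes, 5 windows held TTTGAA, 6 held CCAAT and none held an E2F-type word. Such matches describe letters in a window, not binding.

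The median signal of an array was between 61.2 and 77.4, and every array had the same trimmed mean. All arrays carried high signals of kidney genes (summed over 9 kidney markers, 69249 to 86883). Of 4 Tlr4 probe sets, one gave 65.6 to 120.4 on the 6 wild-type arrays and 0.901 to 3.38 on the 6 null arrays, another 72.9 to 134.8 and 6.33 to 60.4, and the remaining 2 were dim throughout; whether they fall within the deletion is unknown here. The 3 null ischemic arrays stood apart in the 3′ probe set for 18S ribosomal RNA (1410 to 2646, against 304 to 574 on the other 9), while the actin 3′ over 5′ ratio stayed between 1.68 and 2.01. Precision is limited by the 3 arrays per group.

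The clearest pattern was between the genotypes. Cell division genes had lower signals in TLR4 null than in wild-type kidneys, already in the sham groups, and mitotic genes such as Mki67, Cdk1, Birc5, Ccnb2 and Top2a showed the widest gaps. In sham kidneys 6 of the 45 tested members passed the limma test at an adjusted p under 0.05, all lower in TLR4 null, where 0.314% of the 14322 tested genes passed in either direction and 0.223% passed as lower. In ischemic kidneys 5 of 45 passed, all lower, where the shares over all genes were 0.656% and 0.517%. Mki67, in both counts, had passed the filter on low signals through wild-type arrays only, where it was high. Cdk1, in both counts, and Birc5, in the sham count, also needed their high wild-type arrays to pass it, with fewer than 3 null arrays over the threshold. With no filter 6 and 2 of all 55 genes passed. Because these are whole kidneys, fewer cycling cells and less RNA per cell cannot be told apart. The members were chosen with earlier results of these data known, so comparisons with all genes, here and below, are not free of that choice.

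Without regard to the test, the 3 null arrays lay under all 3 wild-type arrays for 23 of 45 members in sham kidneys (8.63% of all genes did so) and for 22 in ischemic kidneys (7.63%). The opposite order occurred for 0 members in sham (8.11% of all genes) and 1 in ischemic kidneys (7.05%), which was Cenpf by the probe set used. Within both surgeries the null arrays were lower without overlap for 15 members (1.87% of all genes), and for 11 of these (Rrm2, Cdk1, Ccnb2, Mki67, Top2a, Smc4, Ube2c, Cdca3, Birc5, Prc1 and Anln) all 6 null arrays lay under all 6 wild-type arrays (0.587%). Mki67 and Anln, in each count of lower members, had passed the filter on low signals through wild-type arrays only, where they were high. Cdk1, Birc5 and Ube2c, also in each count, had fewer than 3 null arrays over the threshold and needed their wild-type arrays to pass. The same held for Aurkb in the sham count and for Cdca8 and Gins1 in the ischemic count. The median difference over the 45 members was -0.45 log2 units in sham and -0.46 in ischemic kidneys, against -0.01 and 0.01 over all genes tested. Negative differences were seen in 41 and 39 of the 45, and, with no filter, in 50 and 47 of the 55 (medians -0.47 and -0.46). Quantile normalization and median scaling left these medians between -0.41 and -0.47.

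**Figure D1:**
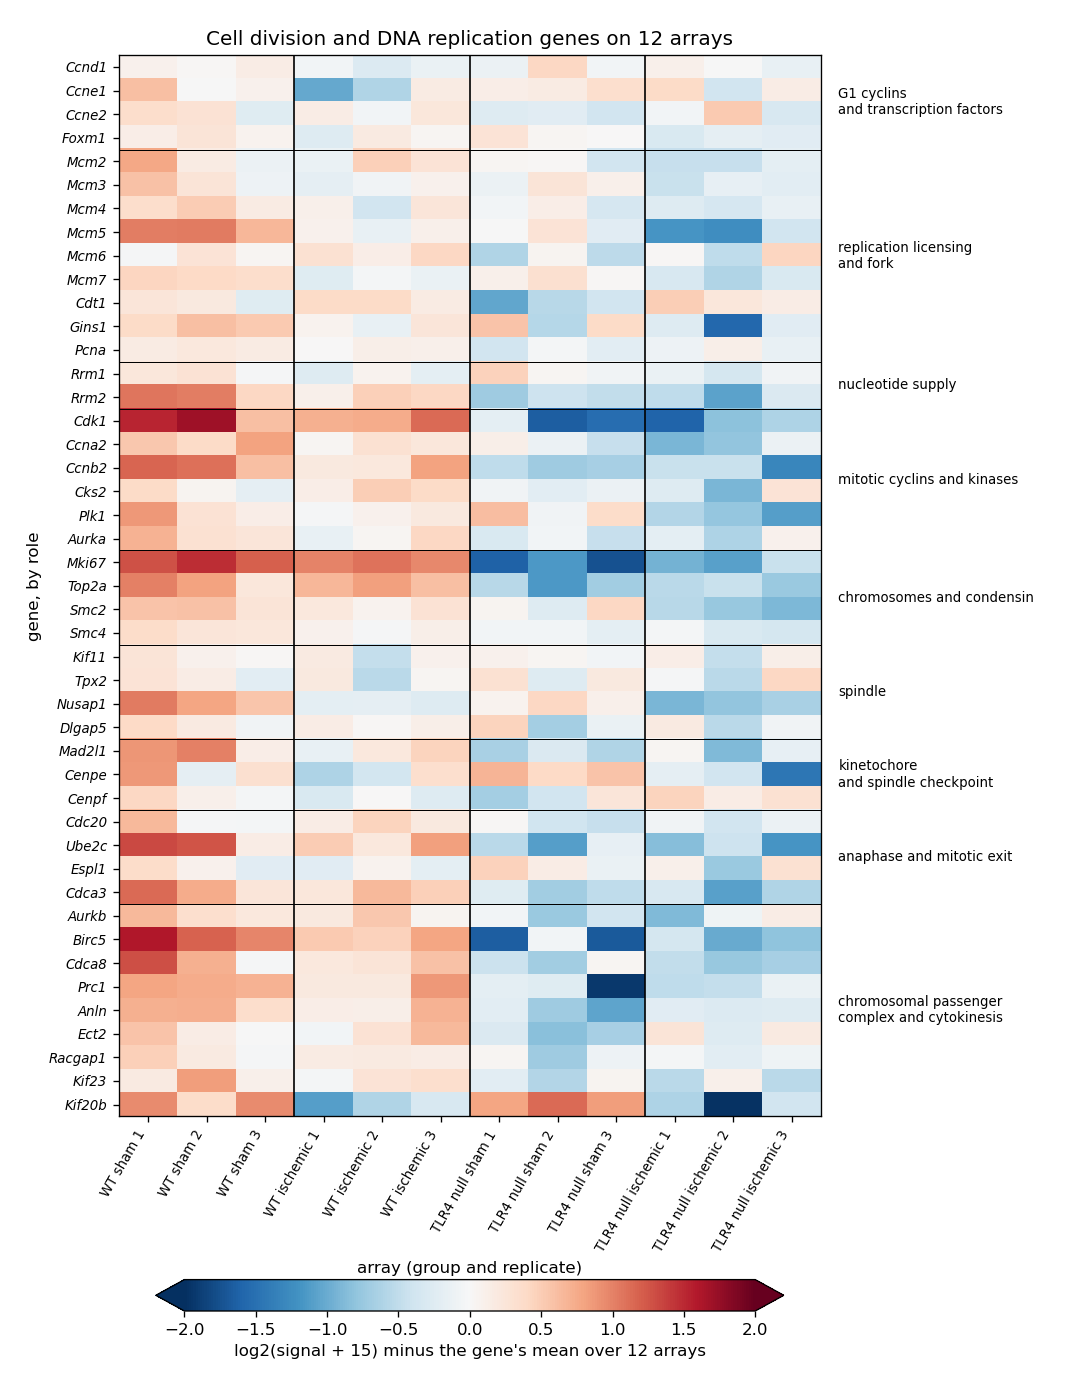
Each row is a tested member, grouped by role, and each column an array; the colour is log2(signal + 15) minus the mean of that gene over the 12 arrays. The wild-type sham columns are mostly red, the TLR4 null columns mostly blue in the rows of mitotic cyclins and chromosome genes, and the rows of G1 cyclins and most spindle genes are mostly pale.

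The proliferation marker Mki67 encodes Ki-67, a protein that coats mitotic chromosomes and is present in cycling cells. Its signals were 161, 188 and 153 on the wild-type sham arrays and 8.94, 18.1 and 6.82 on the TLR4 null sham arrays. In ischemic kidneys they were 130.3, 139.9 and 128 in wild type and 22.8, 19.4 and 38.6 in TLR4 null. The genotypes did not overlap, and no null array reached its own 40th percentile, so the null values sit in the dim range where the added 15 shortens differences. The difference, null minus wild type, was -2.81 ± 0.25 log2 units in sham kidneys (SE, 3 arrays in each of the 4 groups throughout), with a limma adjusted p = 0.000182 over every gene tested, and -1.84 ± 0.25 in ischemic kidneys (limma, adjusted p = 0.00483). Every SE given is that of the limma fit, whose spread is pooled over all 12 arrays and moderated across genes. With no filter on low signals the limma adjusted p was 0.000472 and 0.00924.

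Top2a encodes topoisomerase II alpha, which untangles sister chromatids. It read 221, 189.8 and 122 in wild-type and 65.1, 37.8 and 57.4 in null sham kidneys, and 171, 193 and 164 and 65.2, 71.04 and 54.9 after ischemia. Every null array was under every wild-type array, with differences of -1.48 ± 0.22 (limma, adjusted p = 0.0171) and -1.28 ± 0.22 (limma, adjusted p = 0.0186). A second Top2a probe set past the filter gave differences of only -0.48 and -0.13, neither of which passed.

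The condensin subunits Smc2 and Smc4 were less far apart. Smc2 gave 187, 189.9 and 148 in wild-type and 126, 98.8 and 166 in null sham kidneys, which overlap, and 142, 128 and 151 and 77.5, 65.03 and 58.2 in ischemic kidneys, which do not. Its difference passed only in ischemic kidneys (-0.93 ± 0.19, limma adjusted p = 0.0402, against -0.41 ± 0.19 and adjusted p = 0.534 in sham), and the interaction did not pass (-0.52 ± 0.27, adjusted p = 0.804). Smc4 had 530.1, 486 and 481 and 392, 391 and 356 in sham and 432, 400.3 and 444 and 397, 326 and 317 in ischemic kidneys, ordered by genotype without overlap but not past the test in either surgery (-0.38 and -0.29).

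Among the mitotic cyclins and kinases, Cdk1, the catalytic subunit that drives entry into mitosis, had signals of 224, 253 and 110.0 in wild-type sham and 57.2, 11.3 and 13.6 in null sham kidneys. After ischemia the values were 119.9, 123 and 166 and 12.1, 31.9 and 39.1. The lowest wild-type array stood above the highest null array in each surgery, although 1 null sham array was well above the other 2. The Cdk1 difference was -2.40 ± 0.40 in sham (limma, adjusted p = 0.0182) and -1.87 ± 0.40 in ischemic kidneys (limma, adjusted p = 0.0441). Only 1 null sham array and no null ischemic array was over its own 40th percentile, so most null values of Cdk1 are in the dim range.

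Cyclin B2, a partner of Cdk1 encoded by Ccnb2, measured 199.8, 189.9 and 130.3 in wild-type and 52.3, 43.9 and 45.6 in null sham kidneys. Its ischemic arrays held 94.8, 96.1 and 152 and 55.7, 55.4 and 23.8. The null arrays were the lower in both surgeries, past the test in sham (-1.58 ± 0.27, limma adjusted p = 0.0189) but not in ischemic kidneys (-1.13 ± 0.27, adjusted p = 0.0687). Ccna2, which encodes cyclin A2 of S phase and G2, gave 237, 211 and 290.0 against 174, 145 and 112 in sham and 163, 201 and 189 against 77.2, 85.3 and 145 in ischemic kidneys, with no overlap and no call (-0.72 ± 0.21 and -0.80 ± 0.21). In the fit of every probe set, its other probe set passed in sham kidneys (-1.10).

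Cks2, a small docking subunit of these kinases, did not separate the genotypes by the probe set used: its signals were 1549.5, 1234 and 1042 and 1127, 1024 and 1088 in sham and 1303, 1666 and 1553 and 986, 621 and 1429 in ischemic kidneys, overlapping in both, with differences of -0.22 ± 0.22 and -0.64 ± 0.22. A second Cks2 probe set was lower in null sham kidneys without overlap (608 to 613, against 631 to 878) and did not pass (-0.27). The mitotic kinases Plk1 (-0.12 and -0.90) and Aurka (-0.69 and -0.35) did not pass either. Null arrays were lower without overlap for Plk1 in ischemic kidneys (17.9 to 32.3, against 54.9 to 66.1). For Aurka they were so in sham kidneys (53.4 to 75.4, against 96.3 to 136.7).

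For nucleotide supply both subunits of ribonucleotide reductase were tested. Rrm2 encodes the small, cell cycle-regulated subunit and showed 595, 573 and 373 in wild-type and 163, 202 and 191 in null sham kidneys. In ischemic kidneys the readings were 296, 389 and 373 and 188, 123 and 221. All null arrays were under all wild-type arrays, with differences of -1.38 ± 0.20 (limma, adjusted p = 0.0169) and -0.96 ± 0.20 (limma, adjusted p = 0.0456). They come from a probe set whose suffix (_x_at) marks possible cross-hybridisation; without _x_at and _s_at probe sets the differences were -1.07 and -0.95 and neither passed (limma, adjusted p = 0.0868 and 0.0907). Rrm1, the large subunit, had 204, 214 and 169 and 243, 176 and 163 in sham and 142, 180.5 and 148 and 155, 132 and 164 in ischemic kidneys, which overlap, with differences of -0.02 ± 0.17 and -0.05 ± 0.17. A second Rrm1 probe set gave 148, 152 and 148 in wild-type and 86.6, 78.5 and 105 in null sham kidneys, and 98.0, 104.9 and 101 and 78.7, 79.4 and 82.2 in ischemic kidneys. By that probe set the null arrays were lower without overlap in both surgeries, and its differences of -0.66 and -0.29 did not pass (limma over all probe sets, adjusted p = 0.131 and 0.561).

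Of the chromosomal passenger complex and cytokinesis genes, 1 of 9 passed in sham and none in ischemic kidneys. Birc5 encodes survivin, a subunit of the passenger complex, and read 227, 166 and 142 in wild-type and 10.5, 62.1 and 10.04 in null sham kidneys. Ischemic kidneys gave 100.3, 94.5 and 124 and 47.5, 24.8 and 30.5. Survivin signals were ordered by genotype without overlap, with 1 null sham array above the other 2, and the difference was -2.38 ± 0.37 in sham (limma, adjusted p = 0.0173) and -1.32 ± 0.37 in ischemic kidneys (adjusted p = 0.135). Only 1 null sham and 1 null ischemic array were over their own 40th percentile for Birc5. Other members of the group had gaps of like direction that missed the test: Prc1, a bundler of midzone microtubules (-1.53 and -0.79), the scaffold Anln (-1.26 and -0.56), the passenger subunit Cdca8 (-1.02 and -0.99) and the kinase Aurkb (-0.79 and -0.54). Kif20b, a mitotic kinesin, had 517, 341 and 518 in wild-type and 460.0, 591 and 477 in null sham kidneys, overlapping, and differed by 0.16 ± 0.32 in sham and -0.32 ± 0.32 in ischemic kidneys.

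**Figure D2:**
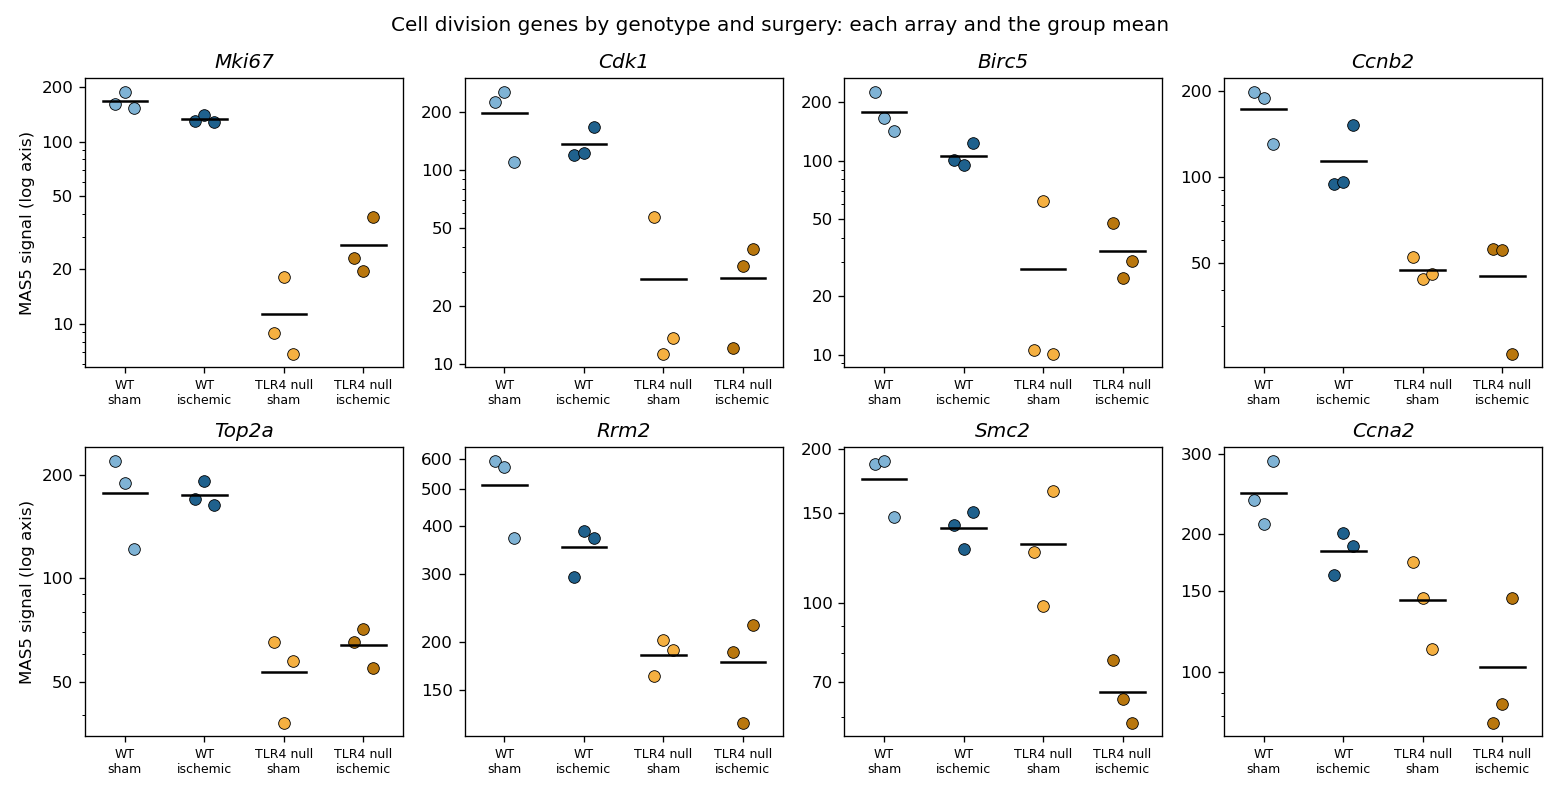
MAS5 signal on a log axis for 8 members; each point is an array and each bar the mean of 3 arrays in the 4 groups. For Mki67, Cdk1, Birc5, Ccnb2, Top2a and Rrm2 all 6 TLR4 null points lie under all 6 wild-type points, whereas Smc2 overlaps in the sham groups.

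Members of mitotic exit and the kinetochore did not pass within a surgery by the probe sets used. Cdca3, a trigger of mitotic entry, gave 280.0, 209 and 144 against 98.4, 67.6 and 79.2 in sham and 142, 196 and 172 against 92.00, 48.2 and 73.5 in ischemic kidneys, without overlap (-1.19 ± 0.24 and -1.12 ± 0.24, adjusted p = 0.0572 and 0.052 in limma). Ube2c, the ubiquitin-conjugating enzyme of the anaphase-promoting complex, was ordered in the same way (-1.51 ± 0.34 and -1.33 ± 0.34, adjusted p = 0.0928 and 0.101). The coactivator Cdc20 had 277, 168 and 167 and 174, 127 and 121 in sham kidneys, which overlap, and 193, 239.9 and 199.5 and 163, 128 and 157 in ischemic kidneys, which do not. A second Cdc20 probe set, with the _x_at suffix, was lower in null kidneys without overlap in both surgeries. It gave 47.3 to 100.7 against 163.0 to 375.1 in sham and 101.0 to 124.8 against 228.5 to 391.8 in ischemic kidneys. Only its sham difference passed (-1.56, limma over all probe sets, adjusted p = 0.036). Mad2l1, the checkpoint protein MAD2, read 245, 269 and 139.6 and 74.5, 101 and 78.2 in sham and 112, 149 and 176 and 129.6, 61.6 and 111 in ischemic kidneys, separate only in sham (-1.19 ± 0.27, adjusted p = 0.0888). Cenpf, a kinetochore protein, was the member with the opposite order in ischemic kidneys, with 57.98, 75.7 and 59.99 in wild type and 108, 85.1 and 95.7 in TLR4 null (0.49 ± 0.25, adjusted p = 0.482); in sham kidneys its values of 106, 81.9 and 72.2 and 41.1, 54.4 and 91.2 overlapped. A second Cenpf probe set did not show that order: it overlapped in ischemic kidneys (-0.06) and was lower in null sham kidneys without overlap (51.1 to 59.6, against 92.5 to 143; -0.89), and neither passed.

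Replication licensing and fork genes had smaller differences, none of which passed within a surgery. All 9 tested members were below 0 in both surgeries, with medians of -0.39 in sham and -0.27 in ischemic kidneys. Mcm5, a subunit of the replicative helicase, had the widest, -0.90 ± 0.21 and -0.95 ± 0.21 (adjusted p = 0.111 and 0.0558). The sliding clamp Pcna read 1947, 2004 and 1939.6 in wild-type and 1329.8, 1692 and 1489.5 in null sham kidneys without overlap (-0.39 ± 0.10, adjusted p = 0.123), and 1747, 1872 and 1855 and 1621, 1891 and 1567 in ischemic kidneys with overlap (-0.11 ± 0.10).

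The genes that open the cycle did not differ past the test. Ccnd1, which encodes cyclin D1, gave 2514, 2416 and 2626 and 2195, 3164 and 2276 in sham and 2295, 1964 and 2174 and 2549, 2361 and 2131 in ischemic kidneys, overlapping in each (-0.00 ± 0.12 and 0.13 ± 0.12). The forkhead factor Foxm1, an activator of mitotic genes, gave 574, 624 and 545 and 634, 534 and 522 in sham and 435, 593 and 534 and 417, 456 and 445 in ischemic kidneys, likewise overlapping (-0.05 ± 0.12 and -0.23 ± 0.12). The spindle genes Tpx2 (0.01 and 0.05) and Kif11 (-0.10 and 0.00) were near 0 by the probe sets used, with Tpx2 signals of 259, 236 and 181 and 264, 174 and 245 in the sham groups and 245, 140.5 and 216 and 207, 140.1 and 288 in the ischemic groups. Other probe sets of both were lower in null sham kidneys without overlap and did not pass: for Tpx2 one gave 23.4 to 41.1 on null and 58.3 to 94.4 on wild-type sham arrays (-0.90), and for Kif11 one gave 33.8 to 51.2 and 52.7 to 79.2 (-0.51).

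Sham and ischemic arrays are separate kidneys, so the genotype difference was measured in independent animals under each surgery. Across the 45 members the differences in sham and in ischemic kidneys correlated at r = 0.80 (across genes, which are not independent replicates), against 0.22 over all genes, and 37 members were below 0 in both. A mean of the genotype difference over both surgeries, added after these values were seen, called 17 of 45 members, all lower in TLR4 null, where 2.1% of all genes were called and 1.49% as lower. Besides the 7 called within a surgery these were Ccna2 (-0.76), Mcm5 (-0.92), Smc4 (-0.34), Nusap1 (-0.59), Mad2l1 (-0.85), Ube2c (-1.42), Cdca3 (-1.16), Cdca8 (-1.01), Prc1 (-1.16) and Anln (-0.91). The count was 11 without wild-type sham replicate 2 or without wild-type ischemic replicate 3. Mki67 and Anln, both among the 17, had passed the filter on low signals through wild-type arrays only, where they were high. Cdk1, Birc5, Ube2c and Cdca8, also among the 17, had fewer than 3 null arrays over the threshold and needed their wild-type arrays to pass.

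**Figure D3:**
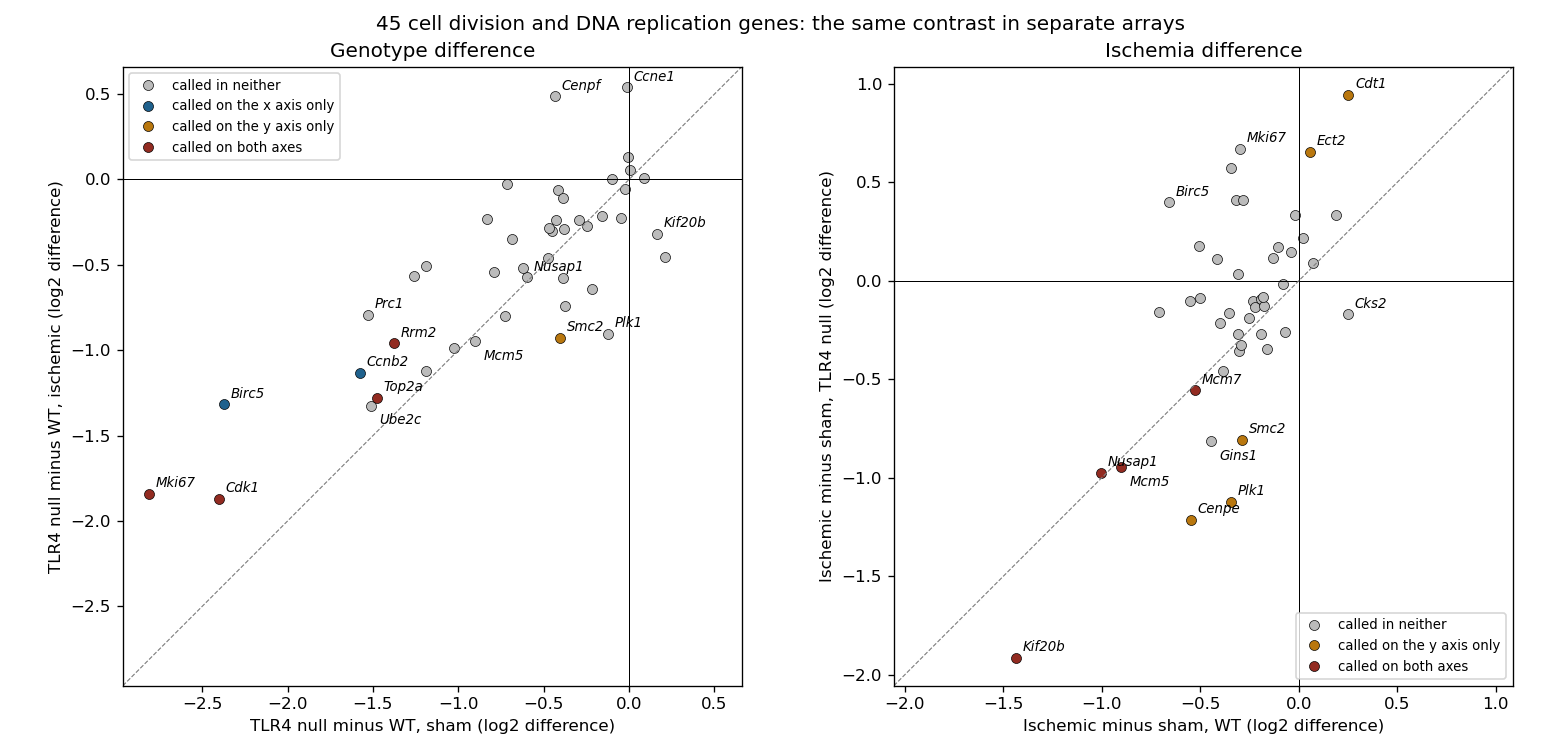
Each point is a tested member. The left panel sets the log2 difference between TLR4 null and wild type in ischemic kidneys (vertical) against that in sham kidneys (horizontal), the right panel the ischemia difference in TLR4 null against that in wild type; the dashed line marks equal values. On the left, 37 of 45 points lie below 0 on both axes, led by Mki67 and Cdk1; on the right, Kif20b, Nusap1, Mcm5 and Mcm7 are called on both axes.

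How many members passed within a surgery depended on single arrays. In sham kidneys only Mki67 passed without wild-type replicate 1, without wild-type replicate 2 or without TLR4 null replicate 3, while 3 and 4 members passed without TLR4 null replicate 1 and 2, and 9 without wild-type replicate 3. In ischemic kidneys only Mki67 passed without any 1 of the 3 wild-type ischemic arrays or without TLR4 null ischemic replicate 1. There, 2 members passed without TLR4 null ischemic replicate 2 or wild-type sham replicate 2, 3 without wild-type sham replicate 1 or TLR4 null sham replicate 1 or 3, and 7 without TLR4 null ischemic replicate 3.

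Markers of other cells also differed in level between the genotypes. The summed signal of 10 monocyte and macrophage markers ran from 3103 to 3248 on wild-type sham and 2569 to 2780 on null sham arrays, and from 2763 to 2888 and 2337 to 2467 on the ischemic arrays. For 6 endothelial markers the ranges were 2603 to 3109 and 2295 to 2477 in sham, and 2015 to 2443 and 1680 to 1936 in ischemic kidneys. For 9 neutrophil markers they were 1279 to 1532 and 691 to 1055 in sham, and 4159 to 6313 and 2222 to 3340 in ischemic kidneys, with Lcn2, which injured tubules also make, the brightest. The median differences of these 9 genes were smaller, -0.26 in sham and -0.03 in ischemic kidneys. Within a surgery only Lcn2 of the 9 passed the test, in sham kidneys, so the sums do not describe the typical marker of that list. The mean of both surgeries called S100a8, S100a9 and Lcn2 lower in TLR4 null, where 1.49% of all genes were called lower. That mean also called C1qa of the macrophage, Tek and Emcn of the endothelial and Tfrc of the erythroid markers lower. C1qa was called lower in ischemic kidneys too (0.517% of all genes). The 5 adipocyte markers, summed, ran from 5413 to 9180 and 3014 to 5794 in sham and from 4356 to 12938 and 2380 to 9737 in ischemic kidneys, which overlap. Their median differences, -0.86 and -1.06, were further from 0 than those of the members (-0.45 and -0.46), and none of the 5 passed the test in either surgery. Erythroid (3 genes) and adrenal cortex markers (5 genes) overlapped between the genotypes in both surgeries. T cell and B cell markers (3 genes) overlapped in sham kidneys and were higher in TLR4 null ischemic kidneys (270.0 to 315, against 219 to 256). Only markers past the filter on low signals were counted, which left 3 of 10 listed T cell and B cell and 3 of 8 listed erythroid markers. No list had all its counted genes under the 40th percentile in a group, which that filter largely set in advance. The part of these cells in the genotype difference was not tested.

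Ischemia for 23 min with 4 h of reperfusion changed few of these genes, most of them downward. In wild-type kidneys 4 of 45 members fell and none rose, where 19.6% of all genes passed, 10.5% as lower. In TLR4 null kidneys 7 fell and 2 rose, where 21.6% passed, 11.7% as lower and 9.86% as higher. Over all genes the wild-type calls were 1313 higher of 2814 and, with median scaling of the arrays, 1289 of 1955. The members' shares of calls, 8.89% and 20%, were thus near or under those of all genes. The share called lower in TLR4 null, 15.6%, was above the 11.7% of all genes. The members' median differences were -0.30 in wild type and -0.10 in TLR4 null, against -0.09 and -0.07 over all genes. Below 0 were 39 of 45 members in wild type and 28 in TLR4 null, against 60.2% and 58.3% of all genes. By the probe sets used, Kif20b, Nusap1, Mcm5 and Mcm7 fell in both genotypes. These 4 were also the members whose sham and ischemic arrays did not overlap in either genotype (12% of all genes were lower in that way).

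Kif20b, a kinesin of the late mitotic spindle and midbody, had the largest fall. Wild-type signals were 517, 341 and 518 in sham and 113, 166 and 206 in ischemic kidneys, and TLR4 null signals were 460.0, 591 and 477 and 165, 54.8 and 196. All ischemic arrays were under all sham arrays, with 1 null ischemic array lower than the rest. The change was -1.43 ± 0.32 in wild type (limma, adjusted p = 0.00531) and -1.91 ± 0.32 in TLR4 null (limma, adjusted p = 0.000591). The other 3 Kif20b probe sets did not pass the filter.

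The microtubule-binding spindle protein Nusap1 read 456, 382 and 323 in wild-type sham and 185, 189 and 178 in wild-type ischemic kidneys. In TLR4 null it read 226, 290.4 and 232 and 107, 118 and 132. Sham and ischemic arrays were again separate, and the changes were -1.003 ± 0.15 (limma, adjusted p = 0.000191) and -0.98 ± 0.15 (adjusted p = 0.000234). The null arrays were lower than the wild-type arrays within each surgery.

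Of the licensing genes, the helicase subunits Mcm5 and Mcm7 fell in both genotypes. Mcm5 gave 387, 389 and 298 in wild-type sham and 194, 162 and 197 in wild-type ischemic kidneys, and 180.0, 223 and 154 and 71.6, 68.2 and 136 in TLR4 null. The null sham arrays sat near the wild-type ischemic arrays and the null ischemic arrays below both. Its changes were -0.90 ± 0.21 (limma, adjusted p = 0.00749) and -0.95 ± 0.21 (adjusted p = 0.00498), but they come from a probe set with the suffix named for Rrm2. The other Mcm5 probe set past the filter gave -0.87 and -0.26, and without such probe sets neither change passed (adjusted p = 0.0839 and 0.651). For Mcm6 and Mcm2, not called by the probe sets used, a second probe set passed. That of Mcm6, with the same suffix, rose in TLR4 null (0.52, limma over all probe sets, adjusted p = 0.028). That of Mcm2 fell in wild type (-0.62, limma over all probe sets, adjusted p = 0.0427).

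Mcm7 had 657, 644 and 621 and 408, 471 and 441 in wild-type and 520.0, 608 and 490.4 and 385, 314 and 388 in TLR4 null kidneys. Its spread within groups was small, sham and ischemic arrays were separate, and the changes were -0.53 ± 0.11 (limma, adjusted p = 0.00359) and -0.56 ± 0.11 (adjusted p = 0.00236). All 4 Mcm7 probe sets past the filter were below 0 in both genotypes (-0.53 to -0.25 and -0.56 to -0.27). In the fit of every probe set 1 of the 4 was called in wild type and 2 in TLR4 null. The Mcm7 probe set with the _x_at suffix overlapped in both genotypes (-0.25 and -0.37) and did not pass. Cdt1, the loading factor of the helicase, rose in TLR4 null from 174, 249 and 281 to 528, 438 and 412 (0.94 ± 0.17, limma adjusted p = 0.000997). Wild-type Cdt1 was already in that range in sham kidneys (440.1, 426 and 311, and 490.1, 492 and 417 after ischemia) and did not pass (0.25 ± 0.17). A second Cdt1 probe set gave a smaller difference in TLR4 null, 0.33, with overlap (limma over all probe sets, adjusted p = 0.355). The clamp Pcna (-0.11 and 0.17) and the large reductase subunit Rrm1 (-0.30 and -0.33) did not pass in either genotype, although the second Rrm1 probe set fell in wild type (-0.50, limma over all probe sets, adjusted p = 0.0414).

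The remaining calls were in TLR4 null kidneys. Plk1, a kinase of centrosomes and spindle assembly, fell from 93.7, 52.1 and 76.6 in sham to 32.3, 26.6 and 17.9 in ischemic kidneys without overlap (-1.12 ± 0.28, limma adjusted p = 0.00853), with 114, 71.2 and 62.7 and 54.9, 59.8 and 66.1 in wild type (-0.34 ± 0.28). On no null ischemic array was Plk1 over the array's own 40th percentile. Smc2 fell in TLR4 null, with a change of -0.81 ± 0.19 (adjusted p = 0.00649), against -0.29 ± 0.19 in wild type. The kinetochore motor Cenpe, a dim gene, went from 63.7, 49.9 and 58.4 to 28.4, 22.99 and 3.19 in TLR4 null (-1.21 ± 0.41, limma adjusted p = 0.0443), and from 74.9, 28.7 and 46.3 to 17.1, 23.4 and 47.4 in wild type with overlap.

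Ect2, which acts at the cleavage furrow in cytokinesis, rose in TLR4 null from 122, 77.8 and 90.4 to 183, 125 and 174 (0.66 ± 0.22, adjusted p = 0.046), with 233, 169 and 150.5 and 145, 189 and 245 in wild type. The calls of Cenpe and Ect2 were lost in 7 and 6 of the 12 fits that leave out an array. In the mean of both genotypes 10 members passed, where 33.1% of all genes did, split into 1957 higher of 4735 and, with median scaling, 1927 of 3675. These added Foxm1 (-0.25 ± 0.08, limma adjusted p = 0.0307) and Ccna2 (-0.42 ± 0.15, adjusted p = 0.0416), both lower after ischemia. For each a second probe set did not show this: it gave 0.07 for Foxm1 and 0.10 for Ccna2, whose null ischemic arrays (121 to 131) lay above the null sham arrays (73.9 to 104).

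**Figure D4:**
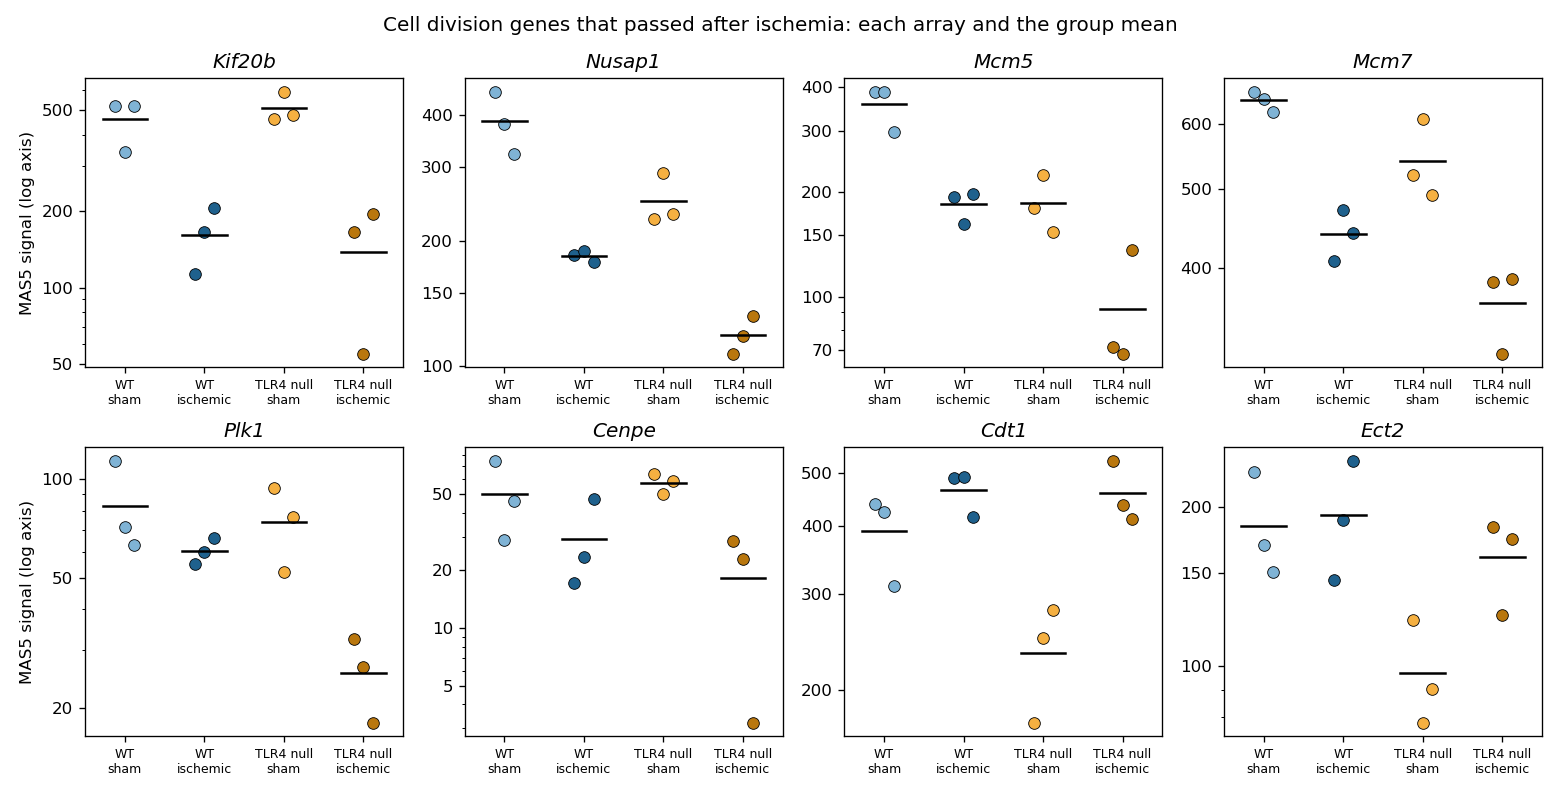
MAS5 signal on a log axis for 8 members called after ischemia in at least 1 genotype; each point is an array and each bar the mean of 3 arrays. Kif20b, Nusap1, Mcm5 and Mcm7 are lower in the ischemic group of each genotype, Plk1 and Cenpe are lowest in TLR4 null ischemic kidneys, and Cdt1 and Ect2 are lowest in TLR4 null sham kidneys.

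By the probe sets used, the genes with the widest genotype gaps did not pass after ischemia. For Mki67 the ischemic minus sham value was -0.30 ± 0.25 in wild type and 0.67 ± 0.25 in TLR4 null (limma, adjusted p = 0.458 and 0.0725). The same values were -0.42 ± 0.40 and 0.11 ± 0.40 for Cdk1, 0.02 ± 0.22 and 0.22 ± 0.22 for Top2a, and -0.66 ± 0.37 and 0.40 ± 0.37 for Birc5. Of 3 Rrm2 probe sets, 1 that does not stand for the gene fell in wild type (-0.72, limma over all probe sets, adjusted p = 0.049). A second Cenpf probe set also fell in wild type (-0.78, limma over all probe sets, adjusted p = 0.0322). Whether ischemia acted differently in the genotypes was tested by the interaction. No member and no other gene passed in limma, and 3 of 45 members had an unadjusted p under 0.05, where 6.37% of all genes did. They were Cdt1 (0.69 ± 0.24), Mki67 (0.97 ± 0.36) and Cenpf (0.92 ± 0.35), with limma adjusted p of 0.651, 0.672 and 0.699. The calls confined to TLR4 null kidneys are thus not shown to differ from wild type.

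Other genes of the pathway were taken from lists, and their counts stand beside the shares of all genes given above (0.314% in sham and 0.656% in ischemic kidneys between the genotypes, and 19.6% in wild type and 21.6% in TLR4 null after ischemia). Of 31 further mitosis genes tested, 3 were lower in null sham kidneys (Kif22, -1.52 ± 0.25; Pbk, -1.45 ± 0.21; Pttg1, -0.76 ± 0.14) and 1 in null ischemic kidneys (Pbk, -0.99 ± 0.21), and none was higher. The list's medians were -0.46 and -0.31. The mitotic kinase gene Pbk had 302, 285 and 172 in wild-type and 100.2, 79.2 and 64.6 in null sham kidneys, and 163, 175 and 206 and 89.7, 78.2 and 81.7 in ischemic kidneys, with all null arrays under all wild-type arrays. After ischemia Spc25, a kinetochore subunit, fell (-0.65 in wild type and -0.56 in TLR4 null) and Cdca4 rose (0.75 and 0.87), while the kinesin Kif22 rose in TLR4 null (0.73, with -0.15 in wild type).

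Of 43 further replication genes, 1 differed between genotypes in sham kidneys: Tk1, the thymidine salvage kinase, with 233, 235 and 169 in wild type and 69.8, 125 and 52.3 in TLR4 null (-1.28 ± 0.24, limma adjusted p = 0.0361). None passed in ischemic kidneys, and the medians were -0.15 and -0.04. After ischemia 6 fell in wild type and none rose, and in TLR4 null 4 fell and 2 rose (Orc4 and Dut). In each genotype the share called in either direction was smaller than among all genes. By direction, the 6 of 43 that fell in wild type stand beside 10.5% of all genes called lower. For TLR4 null 11.7% of all genes were called lower and 9.86% higher. The licensing inhibitor Gmnn fell in both genotypes (-0.82 ± 0.13 and -0.62 ± 0.13), as did Rpa1, which coats single-stranded DNA (-0.66 ± 0.11 and -0.53 ± 0.11).

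Regulators of entry and arrest formed a further list. Of 49 tested, none passed in limma between the genotypes in sham or ischemic kidneys. After ischemia 11 rose and 8 fell in wild type, where 19.6% of all genes passed, 10.5% as lower and the rest as higher. In TLR4 null 10 rose and 6 fell, where 9.86% of all genes rose and 11.7% fell. The stress genes Gadd45a (2.70 ± 0.20 and 2.57 ± 0.20) and Gadd45b (1.74 and 1.78) rose in both genotypes. So did the growth factor-induced gene Myc (2.56 ± 0.18 and 2.55 ± 0.18), the antiproliferative gene Btg2 (1.80 and 1.87) and the cyclin-dependent kinase inhibitor Cdkn1a (0.95 and 1.19). The inhibitor Cdkn1b (-0.72 and -0.54), the pocket protein Rbl2 (-0.72 and -0.67) and Lin9, a subunit of the complex that binds CHR elements (-1.04 and -0.97), fell in both.

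For 22 members more than 1 probe set passed the filter, and these agreed in the sign of the genotype difference for 19 in sham and 14 in ischemic kidneys. In the fit of all 30326 probe sets, 8 members had a called probe set in sham kidneys (0.178% of all probe sets were called), with Ccna2 and Cdc20 added, and 3 in ischemic kidneys (0.406%). Probe sets of 1 gene could lie far apart. For Mcm3 the differences ran from -1.57 to -0.16 in sham and from -1.17 to 0.38 in ischemic kidneys. For Cdca3 the brighter probe set gave -1.19 and -1.12, the other, with the suffix named above, 0.08 and 0.01. For Cdc20 the probe set used, brighter by its mean log2 signal, gave -0.47 and -0.46, and the other, with the same suffix, -1.56 (called) and -1.23.

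**Figure D5:**
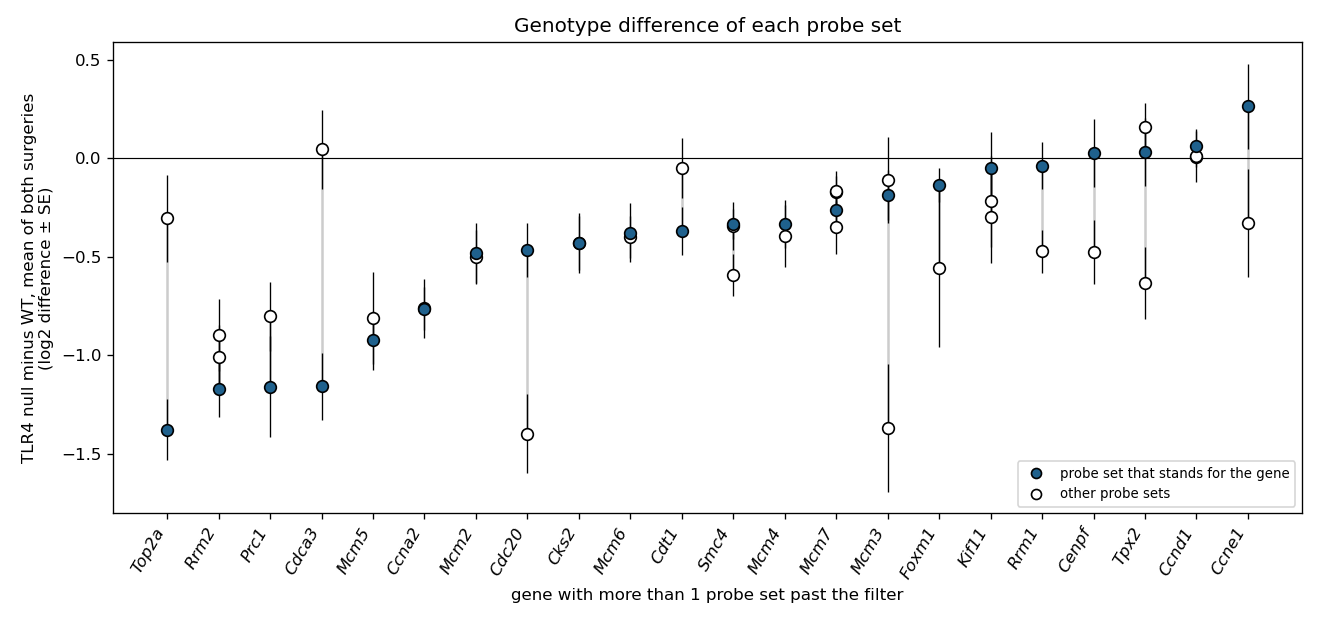
The log2 difference between TLR4 null and wild type, mean of both surgeries, for every probe set of the 22 members with more than 1 past the filter; bars are the SE and filled points stand for the gene. Rrm2, Prc1, Mcm5, Ccna2, Mcm2 and Cks2 have probe sets close together below 0, while those of Top2a, Cdca3, Cdc20 and Mcm3 lie far apart.

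The 10 members that were too dim to test had 21 probe sets with signals from 1.00 to 74.8. By the brightest probe set of each, with both surgeries pooled, the spindle checkpoint kinase Bub1b ran from 9.83 to 74.8 on wild-type and from 5.17 to 13.7 on TLR4 null arrays, and the midzone kinesin Kif20a from 32.9 to 59.8 and from 2.32 to 42.0. The mitotic kinase Melk ran from 15.5 to 46.6 and from 3.17 to 21.01. These pooled ranges overlap between the genotypes. Within a surgery the null arrays of Kif20a were lower without overlap in both (46.2 to 59.8 against 2.76 to 42.0 in sham, 32.9 to 50.3 against 2.32 to 19.8 in ischemic kidneys), those of Bub1b in sham kidneys (19.8 to 74.8 against 7.19 to 13.7) and those of Melk in ischemic kidneys (17.7 to 30.8 against 3.17 to 3.98). Probe sets of the checkpoint kinase Bub1 did not agree. One ran from 1.44 to 22.3 on wild-type and 3.00 to 29.5 on null arrays, while another, nearly as bright, had all 6 wild-type arrays (15.5 to 39.05) above all 6 null arrays (2.23 to 6.61). For E2f1 the brightest probe set was lower in null ischemic kidneys without overlap (3.97 to 10.4, against 23.1 to 41.7), and another was higher there without overlap (11.9 to 28.2, against 4.88 to 10.5). All of these signals are in the dim range, and no test was made on them.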

How the data were processed

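The deposited table holds MAS5 signal intensity on a linear scale for 45101 probe sets (64 controls, left out) on 12 arrays; the authors made it with MAS5, per the submitters' processing notes, with its version and scaling target not given in the sources used here. The authors' scaling was kept. Names came from the platform annotation: 34945 probe sets had 1 gene (34741 matched the RefSeq gene table), 932 several and 9160 none.

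Values were taken as log2(signal + 15), 15 being the rounded 20th percentile of all signals, which understates folds of dim genes. After the filter (40th percentile, at least 3 of 12 arrays) each gene was represented by its brightest probe set. All 14322 genes were fitted with limma 3.58.1 in R 4.3.3 (4 group means, 8 residual degrees of freedom, eBayes with a trend), p adjusted by Benjamini and Hochberg, two-sided, called under 0.05. The fit was tested on simulated data. Other scalings, filters, probe set rules, models and arrays left out are in the closing section. Values on every array were given for called members and the 2 brightest of each role. Members and lists were chosen with earlier results of these data known. Replicate numbers did not pair the arrays (correlations of same-numbered deviations -0.06 to 0.10).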

Additional observations from a re-analysis of the deposited data

How the results depend on the processing

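Under 25 alternatives, 24 named differences gave 598 values, all in the same direction; 492 passed the test and 106 did not. In sham kidneys the count of called members (6) became 1 with eBayes without a trend and 15 with array weights, and ran from 1 to 9 when an array was left out. In ischemic kidneys the count (5) became 2 with no filter, with probe sets averaged per gene and with only the 2 groups compared, 3 with every probe set on its own and 1 without a trend. Leaving out an array gave 1 to 7 there. With the replicate number as a block it was 2 in ischemic kidneys and 6 in sham kidneys, although the numbers did not pair the arrays. The mean genotype difference called 11 to 17 members when an array was left out. After ischemia, the wild-type count (4) became 8 with every probe set on its own, and the ranges with an array left out were 4 to 5 in wild type, 8 to 10 in TLR4 null and 7 to 12 in the mean of both; the block gave 4, 8 and 9. Over all genes, the sham genotype count of 45 was 4 without a trend, 20 with median scaling, 81 with only the 2 groups compared and 160 with array weights (2 to 61 with an array left out). The ischemic count of 94 was 17 with only the 2 groups compared, 20 without a trend, 47 with no filter, 61 with the block and 164 with array weights (10 to 244), and that of the mean genotype difference, 301, was 107, 186 and 470 without a trend, with median scaling and with array weights. The interaction called 15 genes, none a member, without TLR4 null ischemic replicate 3 and none otherwise. The cause of these shifts was not tested. The number of arrays, 3 per group, and signals near background in the null kidneys limit what the dim members can show.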
